A study of Mus musculus with 8 samples.

Results

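The miR-23, miR-27 and miR-24 microRNAs (miRNAs) of the mouse come from 2 related gene clusters, and 10 of their mature products were followed here in macrophages before and after LPS. They were taken by name from the 1907 mature miRNAs of the deposited tables: mmu-miR-23a-5p, mmu-miR-23a-3p, mmu-miR-27a-5p and mmu-miR-27a-3p from chromosome 8, mmu-miR-23b-5p, mmu-miR-23b-3p, mmu-miR-27b-5p and mmu-miR-27b-3p from chromosome 13, together with mmu-miR-24-3p and mmu-miR-3074-1-3p. The prefix mmu, for the mouse, is left out from here on. The cells were bone marrow-derived macrophages of wild-type mice aged 8 to 12 weeks, grown for 6 days in L929 supernatant, a conditioned medium that supplies the growth factor MCSF. One group of 3 small RNA libraries came from cells left unstimulated, and another group of 3 came from cells given LPS, a bacterial cell wall component that Toll-like receptor 4 detects, at 100 ng/ml for 3 h. Separate animals or cultures are not stated for the libraries within a group, so the p-values rest on the spread between these 6 samples alone, and that spread may be purely technical.

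A miRNA hairpin is cut by Dicer into a duplex of a 5p and a 3p arm, and as a rule one arm is loaded into an Argonaute protein while its partner is degraded. The loaded arm finds messenger RNAs mainly through its seed, the bases from position 2 to 8. Both clusters arose by duplication of one ancestral set, so miR-23a and miR-23b, miR-27a and miR-27b, and the shared miR-24 are paralogs. In myeloid cells the cluster of miR-23a is known as a target of the transcription factor PU.1 and as a brake on B cell development, miR-27 is known for acting on regulators of lipid metabolism such as PPARγ, and miR-24 for acting on cell cycle genes.

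The hairpins of miR-23a (Mir23a), miR-27a (Mir27a) and one copy of miR-24 (Mir24-2) lie on the plus strand of chromosome 8, from 84208518 to 84208921 in the GRCm38.p6 assembly, a stretch of 404 bases that no other RefSeq gene spans apart from the hairpins themselves. Those of miR-23b (Mir23b), miR-27b (Mir27b) and the other copy of miR-24 (Mir24-1) lie on the plus strand of chromosome 13 from 63300484 to 63301275, a stretch of 792 bases inside the span of the protein-coding gene Aopep (62964893 to 63326096). The RefSeq gene table gives spans only, so exons and introns of Aopep were not told apart. The gap between the first and the second hairpin is 79 bases on chromosome 8 and 154 bases on chromosome 13. Of the 10 members 8 were matched by name to a mature sequence in RefSeq's GRCm38.p6 table.

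The 3p arms are shown first because they carry nearly all counts of their hairpins, with the seed in capitals:
miR-23a-3p: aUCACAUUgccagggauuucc
miR-27a-3p: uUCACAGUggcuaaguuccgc
miR-27b-3p: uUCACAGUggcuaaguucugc
The miR-27a-3p and miR-27b-3p sequences share the seed UCACAGU and are identical at 20 of 21 positions, with 1 substitution, C19U, counted from the 5′ end of miR-27a-3p. Whether a read short of that base could have been counted for either paralog depends on the authors' handling of ambiguous reads, which is not given in the sources used here.

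The 5p arms are shown because miR-27a-5p was the one arm of the miR-23 and miR-27 hairpins that passed the test for LPS, and its sequence can be set against that of its paralog, again with bases 2 to 8 in capitals:
miR-23a-5p: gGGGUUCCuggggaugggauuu
miR-23b-5p: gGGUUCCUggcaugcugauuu
miR-27a-5p: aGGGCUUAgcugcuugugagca
miR-27b-5p: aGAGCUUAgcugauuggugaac
The 5p arms of miR-27a and miR-27b differ at 8 of 22 positions, among them G3A within the seed, so the paralogs that share a seed on the 3p side do not share one on the 5p side. No other mature miRNA of the tables with a RefSeq sequence had the seed of miR-23a-5p, miR-23b-5p, miR-27a-5p or miR-27b-5p. The whole hairpins of the miR-27 paralogs follow, with both arms in capitals:
Mir27a: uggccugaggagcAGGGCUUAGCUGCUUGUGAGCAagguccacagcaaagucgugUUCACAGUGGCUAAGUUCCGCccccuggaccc
Mir27b: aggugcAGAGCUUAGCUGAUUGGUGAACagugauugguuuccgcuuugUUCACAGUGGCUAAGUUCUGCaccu

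The libraries held 3280688 to 4312555 miRNA counts each. Levels are given as CPM, the counts divided by the library's TMM-scaled total (TMM factors 0.960 to 1.05) and multiplied by 1000000. A single count was worth 0.237 to 0.317 CPM. The 9 myeloid markers summed to 295022 to 350231 CPM across the 6 libraries, although one of them, miR-142a-3p, had 0 counts throughout. Most of this sum was miR-22-3p, at 219045 to 257801 CPM. Next came miR-142a-5p at 52271 to 62164 CPM, while miR-223-3p had 1664 to 3415 CPM. Markers of most other cell types were at or near 0: the 2 endothelial arms of miR-126a summed to at most 0.243 CPM, although miR-126a-3p overlaps another mature miRNA on the opposite strand, a class with few counts in these tables (below), and the 7 stromal arms to at most 2.21 CPM. Erythroid arms summed to at most 1.58 CPM, and those of lymphocytes to 56.3 to 77.6 CPM. The 6 epithelial arms summed to 241 to 269 CPM in unstimulated and 219 to 275 CPM in LPS libraries, so these sums overlapped between the groups.

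In both groups miR-27b-3p was the dominant product of the clusters. It held 63179, 81761 and 68862 CPM in the unstimulated libraries and 60225, 74031 and 59545 CPM in the LPS libraries, and it ranked 3 among all mature miRNAs by mean level. It made up 85.5% to 87.5% of the counts of the 10 members in every library. Both groups overlapped, and the second replicate was the highest of its group in each.

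The other 3p arms stood close to each other and far below it. miR-23b-3p had 3325, 4579 and 3309 CPM in unstimulated and 3093, 4056 and 3132 CPM in LPS libraries. miR-23a-3p had 3077, 4590 and 3038 CPM and then 3297, 4270 and 3130 CPM. miR-27a-3p had 2996, 3891 and 3122 CPM and then 3428, 3536 and 3552 CPM. These 3 arms ranked 31 to 33 among all miRNAs, their ranges overlapped between the groups, and their means within a group lay closer together than the SD of miR-23a-3p (885 CPM in unstimulated, 616 CPM in LPS libraries). The second replicate of each group was again the highest for miR-23a-3p and miR-23b-3p.

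The 5p arms were scarcer by orders of magnitude. The level of miR-27b-5p was 241.9 to 335 CPM over all 6 libraries and that of miR-27a-5p 18.0 to 106 CPM, while miR-23a-5p stayed between 0.317 and 4.12 CPM and miR-23b-5p between 0.475 and 1.58 CPM. In unstimulated cells the counts of the 3p arm exceeded those of the 5p arm 34.4-fold for miR-27a, 232-fold for miR-27b, 965-fold for miR-23a and 3876-fold for miR-23b, from counts summed over the 3 libraries. The 8 members with a sequence were 21 to 22 bases long, and no scaling by length was applied. Levels of different miRNAs are compared as deposited counts only.

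**Figure D1:**
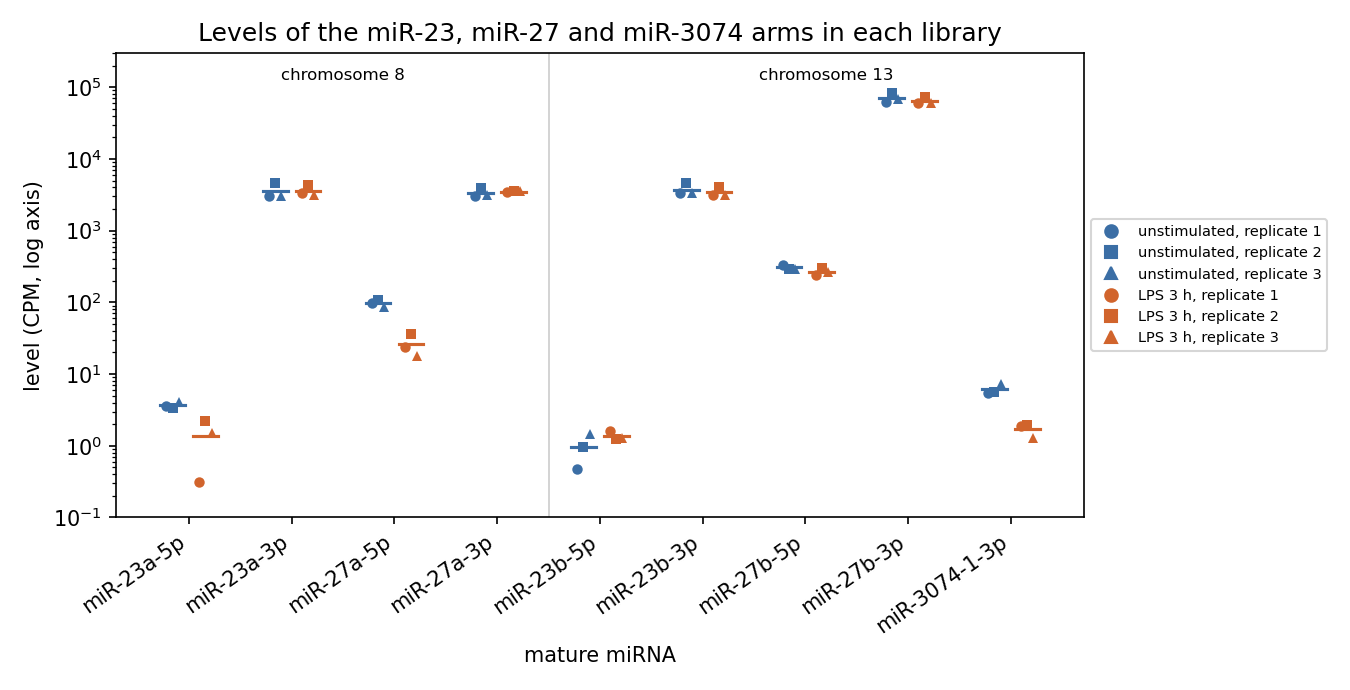
Level of 9 of the 10 members in CPM (log axis) in each unstimulated (blue) and LPS (orange) library, with symbols for the replicate number and a bar at the group mean. miR-24-3p, with 0 or 1 count a library, is not drawn. miR-27b-3p lies above all others at 59545 CPM or more, and the groups separate for miR-23a-5p, miR-27a-5p and miR-3074-1-3p.

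The comparison of LPS with unstimulated cells asked which products of the clusters changed within 3 h. miR-27a-5p fell, and the 3p arm cut from the same hairpin did not pass the test. The level of miR-27a-5p was 98.3, 106 and 86.1 CPM in the unstimulated libraries and 24.1, 36.0 and 18.0 CPM in the LPS libraries. Every LPS library lay below every unstimulated one. In such bulk libraries fewer cells that hold a miRNA and less of it per cell cannot be told apart. This is a 3.71-fold lower level (log2 fold change -1.89, SE 0.23, 95% interval -2.40 to -1.38). The adjusted p was 0.000462 by edgeR's quasi-likelihood F test, adjusted after Benjamini and Hochberg over all tested miRNAs. It rests on 1207 counts in the unstimulated and 294 in the LPS libraries. It passed the threshold in all 14 alternative settings tried, with adjusted p-values from 8.27e-20 to 0.00451.

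Of the 10 members 8 had enough counts to be tested, 2 of them fell, none rose and 6 did not pass. Over all 357 miRNAs tested, 18 passed, which is 5.04%: 5 fell, or 1.40%, and 13 rose, or 3.64%. With upper-quartile scaling 5 fell and 8 rose. The other member that fell was miR-3074-1-3p, described below with miR-24. Groups that did not overlap, with LPS below, were seen for miR-27a-5p, miR-3074-1-3p and miR-23a-5p, and for 7.28% of all tested miRNAs. No tested member had all LPS libraries above the unstimulated ones, against 8.68% of all tested miRNAs. Both miR-3074-1-3p and miR-23a-5p passed the filter on low counts only through the unstimulated libraries, so they could enter the test only by being higher there.

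The abundant arms showed no change past the threshold, and the intervals bound what could have been missed. The fold change of miR-27b-3p, LPS over unstimulated, was 0.906 (95% interval 0.748 to 1.10, edgeR adjusted p = 0.928). For miR-27a-3p it was 1.05 (0.875 to 1.26), for miR-23b-3p 0.917 (0.720 to 1.17) and for miR-23a-3p 0.999 (0.760 to 1.31), with edgeR adjusted p-values from 0.943 to 0.999. Each of these 4 intervals lies above that of miR-27a-5p (0.189 to 0.385).

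The 5p arm of the paralog hairpin did not pass the test. miR-27b-5p had 335, 295 and 291 CPM in unstimulated and 241.9, 297 and 266 CPM in LPS libraries, and the groups overlapped. Its log2 fold change was -0.19 (SE 0.12, 95% interval -0.47 to 0.08, edgeR adjusted p = 0.727).

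miR-23a-5p, the minor arm of the neighbouring hairpin on chromosome 8, had 15, 14 and 17 counts in the unstimulated libraries and 1, 9 and 6 in the LPS libraries. The highest LPS level was 2.21 CPM and the lowest unstimulated level 3.40 CPM. Its log2 fold change of -1.36 (SE 0.45) had an unadjusted p of 0.0124 and an edgeR adjusted p of 0.178, so it did not pass, and the adjusted p ranged from 0.0746 to 0.475 over 13 alternatives. From the summed counts of 46 and 16, the LPS level was 0.388 of the unstimulated one, with a 95% interval for counting error only of 0.205 to 0.697.

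miR-23b-5p had 2, 4 and 6 counts in unstimulated libraries and 5 counts in each LPS library and was not tested. Its ratio of LPS to unstimulated from 15 and 12 counts was 1.39, with a counting interval of 0.609 to 3.26. This interval lies above that of miR-27a-5p by the same measure (0.271, counting interval 0.238 to 0.309), and both cover counting error only. At this depth a smaller rise or fall of miR-23b-5p was not detectable.

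**Figure D2:**
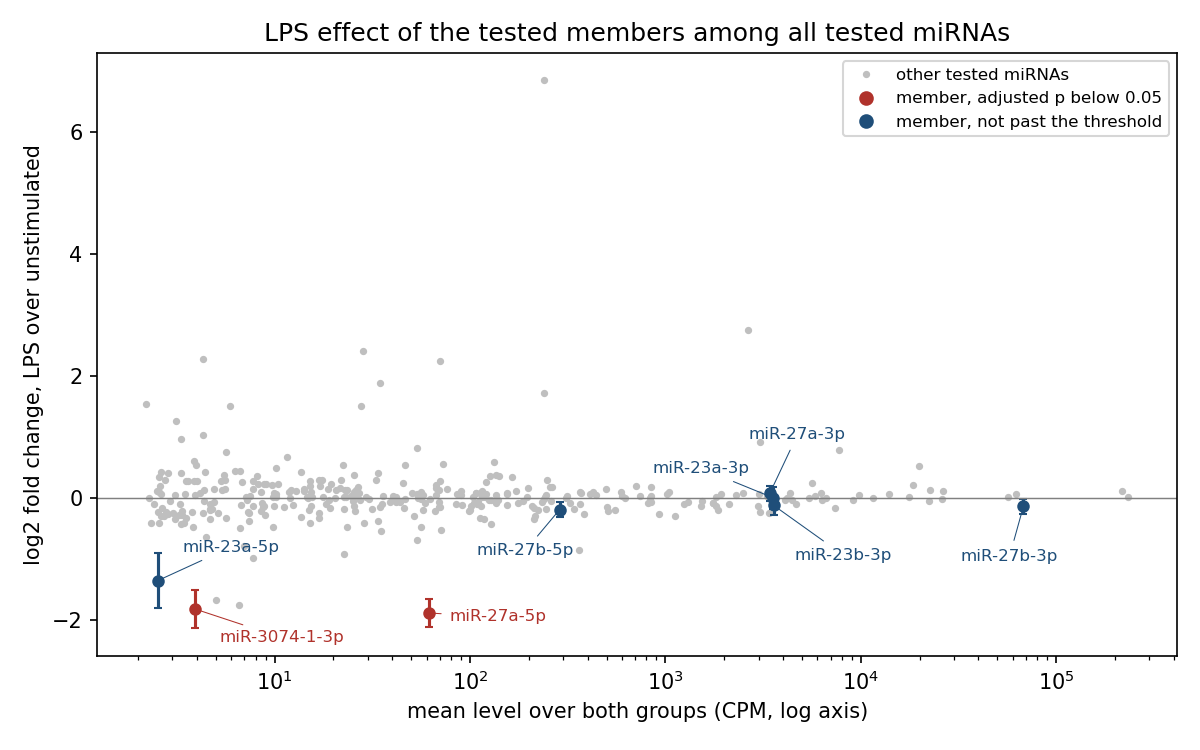
Log2 fold change of LPS over unstimulated against the mean level in CPM (log axis) for all 357 tested miRNAs (grey) and the 8 tested members, with bars for the SE. miR-27a-5p (-1.89) and miR-3074-1-3p (-1.82) are past the threshold (red), while the 4 abundant 3p arms lie between -0.14 and 0.07.

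miR-24-3p, which is known as an abundant miRNA in many cell types, was almost absent from the deposited counts. It had 0 counts in the 3 unstimulated libraries and 1, 1 and 0 counts in the LPS libraries, where a count of 0 allows up to 3 counts, or 0.712 to 0.950 CPM. Its level in the cells was therefore not read from these counts, and no fold change is given. The other arms of the miR-24 and miR-3074 hairpins, miR-24-1-5p, miR-24-2-5p, miR-3074-5p and miR-3074-2-3p, had 0 counts in all 6 libraries.

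These arms are unusual in their position. The mature miR-24-3p is made from both clusters, and at each place it lies opposite another annotated mature miRNA, miR-3074-5p, read from the minus strand. The sequences are shown with bases 2 to 8 in capitals because they cover the same bases of the genome:
miR-24-3p: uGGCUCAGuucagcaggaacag
miR-3074-5p: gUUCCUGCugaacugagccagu
The annotated positions of miR-24-3p and miR-3074-5p overlap by 20 bases on opposite strands at chr8:84208875-84208896 and chr13:63301251-63301272 (positions of miR-24-3p). A contrast chosen after its values were seen covered the 1623 of 1907 names with a mature sequence in RefSeq's table. Of 63 mature miRNAs that overlap another one on the opposite strand by at least 10 bases, 1 reached 10 counts in some library (1.59%). Of 1560 without such a partner 346 did (22.2%). miR-3074-1-3p, with 23, 23 and 30 counts in the unstimulated libraries, had no such sequence and is in neither group. How the authors counted reads that fit several places or either strand is not given in the sources used here, and the part of this in the low counts of miR-24-3p was not tested.

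miR-3074-1-3p comes from a hairpin on the minus strand of chromosome 13 (63301199 to 63301283) that covers all 68 bases of the Mir24-1 hairpin on the plus strand. The use of strand in the counting is not given in the sources used here, so its reads cannot be told apart from those of the opposite Mir24-1 hairpin. It had 23, 23 and 30 counts in the unstimulated libraries and 6, 8 and 5 in the LPS libraries, or 5.46, 5.58 and 7.28 CPM against 1.90, 1.96 and 1.27 CPM. The groups did not overlap, and LPS libraries were 3.54-fold lower, a log2 fold change of -1.82 (SE 0.32, 95% interval -2.53 to -1.12) with an edgeR adjusted p of 0.00599. miR-3074-1-3p passed the filter on low counts only through the unstimulated libraries, so it could enter this test only by being higher there. The call was lost without LPS replicate 3 (log2 fold change -1.59, edgeR adjusted p = 0.0546), within a range of 0.000204 to 0.0546 over 13 alternatives.

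Whether the arms of a hairpin changed equally was tested on the log2 difference between the less abundant and the more abundant arm within each library, over 100 hairpins with both arms tested. In miR-27a the 5p arm lost ground against the 3p arm. Its share of the counts of the hairpin was 3.18%, 2.66% and 2.68% in the unstimulated libraries and 0.697%, 1.01% and 0.505% in the LPS libraries, and the groups did not overlap. The difference between arms moved by -2.01 on the log2 scale (SE 0.23, 95% interval -2.50 to -1.51, limma adjusted p = 7.99e-06). The arms changed unequally in 12.0% of the hairpins, and the less abundant arm lost ground in 3.00%, the others being miR-26b (-0.70) and miR-223 (-0.95).

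In miR-27b, whose 3p arm has the same seed, the 5p share was 0.528%, 0.359% and 0.421% in unstimulated and 0.400%, 0.399% and 0.446% in LPS libraries. These shares overlapped, and the difference between arms moved by -0.06 (SE 0.18, 95% interval -0.44 to 0.33, limma adjusted p = 0.918). In miR-23a the 5p share was 0.116%, 0.0740% and 0.136% in unstimulated libraries and 0.00960%, 0.0516% and 0.0486% in LPS libraries. These groups did not overlap, but miR-23a-5p passed the filter only through the unstimulated libraries. The shift of miR-23a, -1.35 (SE 0.48, limma adjusted p = 0.0947), did not pass. It was -0.90 without LPS replicate 1 (limma adjusted p = 0.337) and -1.60 without LPS replicate 3 (limma adjusted p = 0.0344), and with prior counts of 0.5 and 5 it was -1.69 and -1.01. Its adjusted p passed in 1 of 10 alternatives and ranged from 0.0344 to 0.368. In miR-23b the 5p share was 0.0143% to 0.0440% in unstimulated and 0.0302% to 0.0512% in LPS libraries, and this hairpin was not tested.

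The arm shift was also set directly against that of the paralog. The 5p-minus-3p difference of miR-27a less that of miR-27b was 2.63, 2.93 and 2.71 in unstimulated and 0.83, 1.36 and 0.22 in LPS libraries, all log2 values. It was lower by 1.95 after LPS, and the groups did not overlap (two-sided exact permutation p = 0.1, adjusted over 2 comparisons 0.1). For miR-23a less miR-23b the values were 2.16, 1.40 and 1.36 in unstimulated and -1.44, 0.57 and 0.19 in LPS libraries. They rest on 1 to 17 counts of miR-23a-5p and 2 to 6 of miR-23b-5p a library, and nothing is read from them. Their two-sided exact permutation p, also 0.1, still enters the adjustment over 2 comparisons. With 3 libraries against 3, a p of 0.1 is the smallest this test can give.

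**Figure D3:**
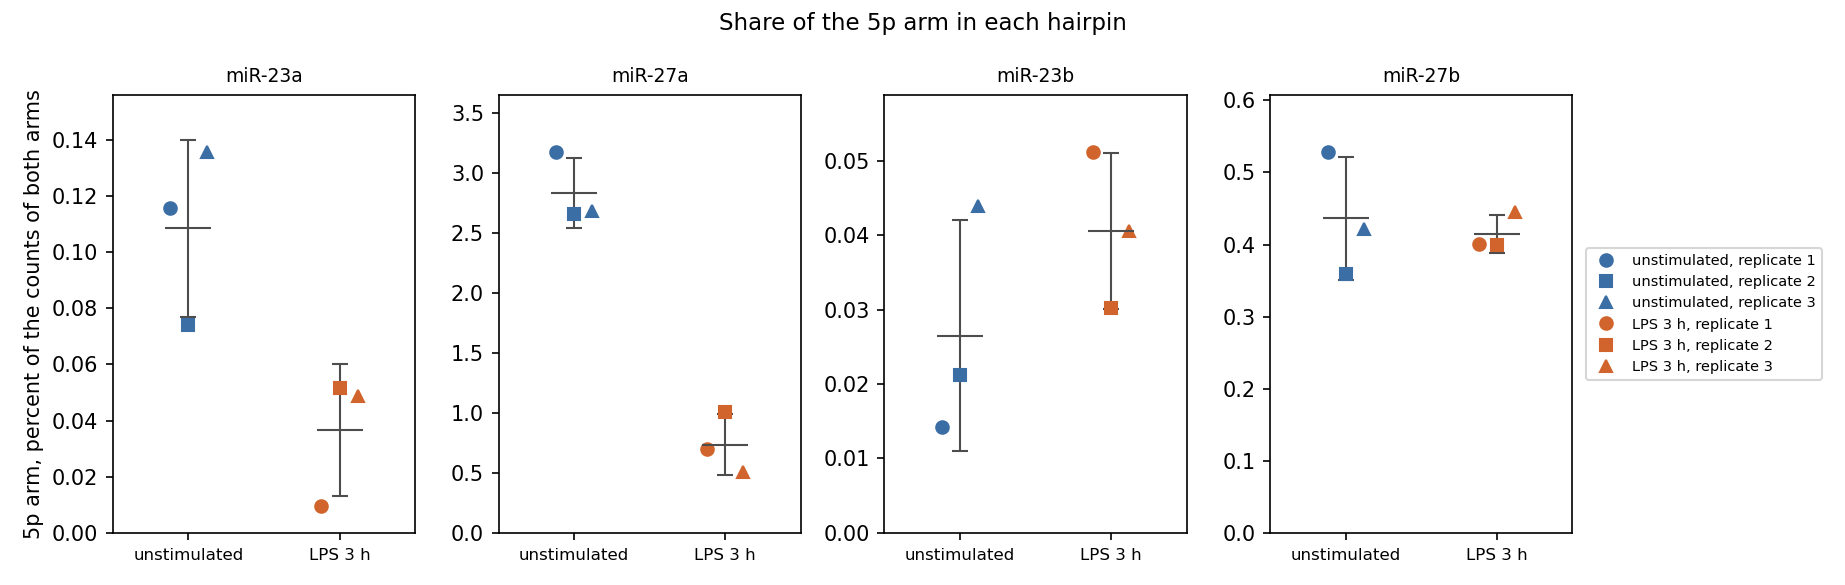
Share of the 5p arm in the counts of both arms (percent, linear axes from 0 that differ between panels) for each hairpin and library, with the group mean and SD (n = 3). The share of miR-27a lies at 2.66% or more in unstimulated and at 1.01% or less in LPS libraries. The groups overlap for miR-23b and miR-27b, but not for miR-23a, with 1 to 17 counts of its 5p arm a library.

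A further comparison asked whether the chromosome 8 product responded differently from its chromosome 13 paralog, by fitting the log2 ratio of paralogous arms within each library over 90 pairs of tested miRNAs. The pairs share arms with one another, and 12.2% of them passed, 8 of the 11 being pairs of let-7. On the 5p side of miR-27 the difference between paralogs was large. The counts of miR-27b-5p exceeded those of miR-27a-5p 3.41-, 2.77- and 3.38-fold in unstimulated libraries and 10.1-, 8.23- and 14.8-fold in LPS libraries. The groups did not overlap, and the log2 ratio of miR-27a-5p to miR-27b-5p moved by -1.73 (SE 0.20, 95% interval -2.17 to -1.29, limma adjusted p = 2.63e-05).

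On the 3p side the ratio of miR-27 moved the other way by a small amount that did not pass. The ratio of miR-27a-3p to miR-27b-3p counts was 0.0474, 0.0476 and 0.0453 in unstimulated and 0.0569, 0.0478 and 0.0597 in LPS libraries. The groups did not overlap, although the second LPS library lay next to the unstimulated ones. The log2 ratio of miR-27a-3p to miR-27b-3p moved by 0.22 (SE 0.10, 95% interval 0.01 to 0.43, unadjusted p = 0.0404, limma adjusted p = 0.202). Groups without overlap were seen in 26.7% of the pairs. Without LPS replicate 2 the shift was 0.32 and passed (limma adjusted p = 0.0467), within a range of 0.0467 to 0.463 over 10 alternatives.

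The 3p arms of miR-23a and miR-23b were present in nearly equal counts. The ratio of miR-23a-3p to miR-23b-3p was 0.925, 1.002 and 0.918 in unstimulated and 1.07, 1.05 and 0.999 in LPS libraries, and these ranges overlapped. Its log2 ratio moved by 0.13 (SE 0.09, 95% interval -0.05 to 0.32, limma adjusted p = 0.499). While the level of each of these arms varied between replicates by 15.9% to 24.8% of its mean (SD over mean in each group), the ratio stayed within 0.918 to 1.07 in all 6 libraries. miR-23b-3p was not matched to a mature sequence in RefSeq's table, so its likeness to miR-23a-3p was not compared. What part reads fitting both paralogs had in this ratio was not tested. For the 5p arms of miR-23 the counts were too low for a test of their ratio.

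**Figure D4:**
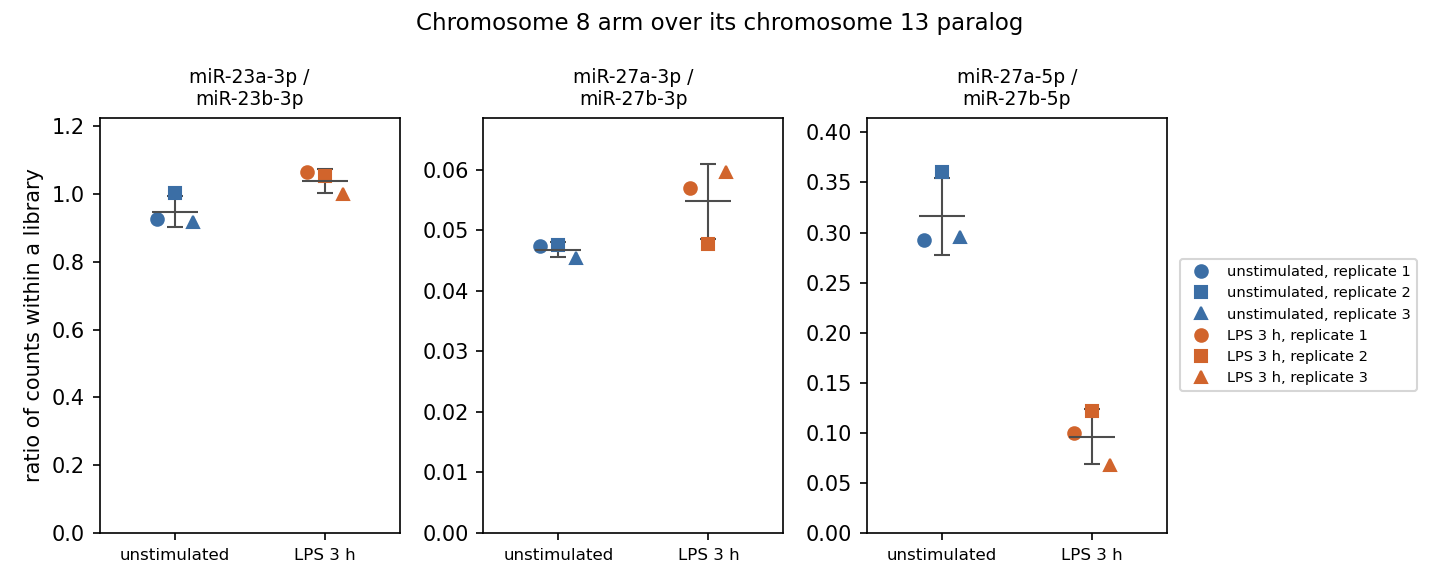
Ratio of the counts of a chromosome 8 arm to those of its chromosome 13 paralog within each library (linear axes from 0), with the group mean and SD (n = 3). The ratio of miR-27a-5p to miR-27b-5p is 0.293 or more in unstimulated and 0.121 or less in LPS libraries, and that of the miR-23 3p arms stays near 1.

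Summed over its miR-23 and miR-27 arms, the chromosome 8 cluster gave 6174, 8590 and 6251 CPM in unstimulated and 6750, 7844 and 6702 CPM in LPS libraries. The chromosome 13 cluster gave 66840, 86636 and 72464 CPM and then 63561, 78385 and 62944 CPM. With libraries taken as unpaired, neither sum differed beyond the spread between them (two-sided exact permutation p = 1 and 0.5, smallest possible 0.1). The log2 ratio of the chromosome 8 sum to the chromosome 13 sum was -3.44, -3.33 and -3.54 in unstimulated and -3.24, -3.32 and -3.23 in LPS libraries. These groups did not overlap, the difference was 0.17, and the two-sided exact permutation p was 0.1, or 0.5 after adjustment over 5 values.

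Counted by seed, miR-27a-3p and miR-27b-3p together held 74604 ± 9999 CPM (SD, n = 3) in unstimulated and 68106 ± 8199 CPM in LPS libraries (two-sided exact permutation p = 0.5). No other mature miRNA of the tables with a RefSeq sequence carried this seed. miR-23a-3p and miR-23b-3p, grouped by name, held 7306 ± 1614 and 6993 ± 1157 CPM (two-sided exact permutation p = 0.6). Beside these sums miR-27a-5p averaged 96.9 ± 10.2 CPM (SD, n = 3) in unstimulated libraries.

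Outside the clusters, the miRNAs with the most similar pattern over the 6 libraries were sought for the 2 members that fell and for the most abundant one. Likeness was the root mean square difference of log2 CPM values, each centred on its own mean. As the choice used these same values, the changes of the chosen miRNAs describe them and are no separate support. The nearest to miR-27a-5p was miR-26a-2-3p, at 0.39, which was also nearest to miR-3074-1-3p, at 0.21. Medians over 349 miRNAs were 1.04 and 0.85. miR-26a-2-3p had 9.26, 9.47 and 11.6 CPM in unstimulated and 4.43, 2.94 and 1.78 CPM in LPS libraries, and it fell by 1.75 on the log2 scale (edgeR adjusted p = 0.0063). Next came miR-30c-1-3p for miR-27a-5p, at 0.56, and miR-25-5p for miR-3074-1-3p, at 0.40, which had log2 fold changes of -0.92 and -0.99 and did not pass (edgeR adjusted p = 0.159 and 0.15). For miR-27b-3p the nearest were miR-511-3p, at 0.06, and miR-671-5p, at 0.07, against a median of 0.28.

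Among 15 tested arms of 19 known as LPS-responsive in macrophages, 5 rose, none fell and 10 did not pass, beside 3.64% higher and 1.40% lower over all tested miRNAs. Their median log2 fold change was 0.27. The 14 arms annotated to the clusters, opposite strand included, had 8 tested, 2 lower (1.40% over all tested miRNAs) and 6 not past the threshold, with a median of -0.17. The median over all 357 tested miRNAs was 0.01. As the filter admitted some of these arms through one group only, counts and medians describe the lists and test nothing.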

How the data were processed

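Per the labels' protocols, total RNA taken up in Tri Reagent was turned into libraries by TruSeq Small RNA chemistry. The authors deposited raw counts, one integer for every mature miRNA in each library. Novoalign, SAMtools 0.1.19 and GRCm38.p1 (mm10) are listed in the submitters' processing notes. How reads were counted, under which annotation, and what was done with strand and ambiguous reads is not given in the sources used here.

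The members and lists were chosen with earlier results of these data known. LPS and unstimulated libraries were compared on the deposited counts with edgeR 4.0.16 (R 4.3.3), with its quasi-likelihood F test, TMM factors and filterByExpr with a minimum count of 10, which kept 357 of 1907 miRNAs. Adjusted p-values (Benjamini-Hochberg, all tested miRNAs) below 0.05 were called changes. Arm and paralog differences were fitted with limma 3.58.1 (variance trend) on log2 CPM with a prior count of 2. Sums were compared by exact permutation. The miRNAs named are all members, the other arms of overlapping hairpins, those sharing a seed and reaching 10 counts, and the 2 of most similar pattern for each changed member and for the most abundant one. Markers come from the lists, and miR-26b, miR-223, let-7 and miR-203-3p were named after their values were seen. The fits were tested on simulated data. Alternatives were DESeq2 1.42.0, limma-voom, other scalings, filters and prior counts, a fit without the variance trend, a replicate block and leaving out each library. No pair of replicates was the same library deposited again, since counts differed by more than counting error (lowest chi-square over its degrees of freedom 62.3). This does not show that they came from separate cultures. Intervals from counts and floors cover counting error only. The 2 samples of the chromosome conformation assay were not analysed here.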

Additional observations from a re-analysis of the deposited data

How the results depend on the processing

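The fall of miR-27a-5p, the arm shift of miR-27a and the paralog difference of the miR-27 5p arms kept their direction. They stayed past the threshold in every alternative run (14, 10 and 10). As each rests on the same counts of miR-27a-5p, they are not independent results. The number of members called was 1 with a minimum count of 50, where miR-3074-1-3p and miR-23a-5p were not tested, and 1 to 2 when a library was left out. The number called over all miRNAs was 11 to 18 when a library was left out and 11 without LPS replicate 3. Without the variance trend 7 hairpins (12 with it) and 6 paralog pairs (11 with it) were called. The near-zero log2 fold change of miR-23a-3p changed sign with limma-voom (0.014), no filter (0.021), a minimum count of 50 (0.0015) and when a library was left out (-0.14 to 0.24). Leaving out a library also turned the sign for miR-27a-3p (-0.046 to 0.21), miR-23b-3p (-0.26 to 0.060), the arm difference of miR-27b (-0.19 to 0.092), the chromosome 8 sum (-546 to 931 CPM) and the miR-23 3p sum (-989 to 676 CPM). The chromosome 8 sum differed by -186 CPM with library totals. None of these passed, and the cause was not tested.

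Replicate numbers are shared by the groups. Over all tested miRNAs, same-numbered libraries deviated together with correlations of -0.04 to 0.14 (other pairs -0.15 to 0.14). Not every library correlated best with its own number. Whether same-numbered libraries were paired cannot be told from these correlations. With a replicate block 17 miRNAs and 2 members were called (18 and 2 without it), 11 hairpins and 12 paralog pairs. In that fit miR-27a-5p was at -1.93 (edgeR adjusted p = 0.00108), and miR-23a-3p changed sign (0.013). With the block the SE was lower for miR-23a-3p, miR-23b-3p, miR-27a-5p, miR-27a-3p and miR-27b-3p. It was higher for miR-23a-5p, miR-27b-5p and miR-3074-1-3p. The exact sign-flip permutation test of sums within this block cannot go below p = 0.25. The chromosome 13 sum and both 3p seed sums gave this smallest p, each being lower in every LPS library than in the same-numbered unstimulated one. So did the log2 ratio of the 2 cluster sums and both arm changes between paralogs, but not the chromosome 8 sum. Depth limits miR-23a-5p, miR-23b-5p and miR-24-3p, at 17, 6 and 1 counts or fewer a library.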

Other observations

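The contrast between mature miRNAs with and without an annotated partner on the opposite strand, chosen after its values were seen, was split by the number of places a mature miRNA has in the RefSeq table. With 1 place and a partner on the opposite strand, 1 of 55 mature miRNAs reached 10 counts in some library, and that one was miR-203-3p. Of those with 2 or more places, 0 of 8 with such a partner and 14 of 43 without one reached 10 counts. The 8 include miR-24-3p and miR-3074-5p. The endothelial marker miR-126a-3p is among the 55 and had at most 1 count in a library, so its low level was read from counts of this kind. No test was made of these shares, and whether strand, multiple places or the level in the cells sets them was not tested.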
